A study of Danio rerio with 3 samples.

Results

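The genes of the hypoxia-inducible factor (HIF) and vascular endothelial growth factor (VEGF) pathways were examined in cartilage of wild-type zebrafish larvae. A list of 10 genes was chosen by name, namely the HIF alpha subunit genes hif1ab, hif1al, epas1a and epas1b, the prolyl hydroxylase genes egln1a and egln3, the tumour suppressor gene vhl, the ligand genes vegfaa and vegfab and the receptor gene kdrl. Of these, 9 had a row among the 14417 genes of the count table, and egln1a was not matched to a row. Cartilage of the cranial base was cut by laser from sections of the occipital region at 6 days post-fertilization (dpf), leaving out the perichondrium, and its RNA was amplified once and sequenced. There were 3 libraries of 1 untreated group, called libraries 1, 3 and 6 after their sample numbers, so nothing was compared between conditions. The study describes them as independent samples and the labels do not say how many larvae each one held, so the spread between libraries may hold both biological and technical error.

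HIF is a pair of proteins whose alpha subunit is destroyed when oxygen is plentiful. Prolyl hydroxylases of the Egln family use oxygen to mark the alpha subunit, and the Vhl protein recognises the mark and brings in a ubiquitin ligase. When oxygen is short the alpha subunit escapes, joins its partner Arnt and switches on target genes, among them genes of glycolysis and the gene of the secreted factor Vegfa, which attracts blood vessels. Cartilage has no vessels of its own, and in mouse growth plates Hif1a is needed for chondrocyte survival. Much of the control acts on the protein, which RNA counts do not measure.

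The libraries held from 18920027 to 25604897 counts, and the single row AC024175.4 took from 34.7% to 59.0% of them, so counts were normalized with TMM, a trimmed mean of log ratios that a few abundant genes hardly affect. On this scale a single read was worth from 0.947 to 1.102 normalized counts. A gene with 10 or more normalized counts in each of the 3 libraries is called above the minimum. A count of 0 allows up to 3 counts (one-sided 95% limit), or from 2.84 to 3.30 normalized counts. Amplified reads are not independent molecules, so these limits and all intervals hold counting error alone. Each fold ratio with an interval sets the highest library against the lowest, picked from the same counts. Such a ratio cannot fall below equal levels, and its interval does not allow for the choice. All 12 chondrocyte marker genes with a row were above the minimum, against 67.8% of all genes. They were led by col2a1a with 366461 ± 102634 and col9a2 with 174534 ± 36439 (SD, n = 3 libraries). Markers of other tissues were also counted. The 10 perichondrium and bone markers summed to 198112 normalized counts in library 1 against 5849 in library 3 and 10554 in library 6. Most of each sum came from collagen I genes, and col1a1b and col1a1a held the most counts. Of the 10 markers, 8 were highest in library 1. The other 2 were highest in library 6, sp7 with 0, 29.7 and 44.5 and dlx5a with 24.1, 24.2 and 27.5 in libraries 1, 3 and 6. The 6 epidermis markers summed to 39199, 5348 and 5376 in the same order, and the 9 blood markers to 36715, 5629 and 37440. A lower count of a gene in such bulk samples can come from fewer cells of a type, from less RNA per cell or from technical error. These cannot be told apart. Counts were not divided by transcript length, so levels are compared between libraries for 1 gene. Where genes of a list were picked for print by their number of counts, this does not order their levels.

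Both hif1ab, which encodes a HIF-1 alpha subunit, and hif1al, for which RefSeq lists the synonym Hif-3alpha, were counted deeply in each library. In libraries 1, 3 and 6 the normalized count of hif1ab was 1965, 1032 and 1755, with a mean of 1584 ± 489 (SD, n = 3 libraries). Library 3 was thus the low library, and library 1 exceeded it 1.90-fold (95% counting interval 1.76 to 2.06). For hif1al the values were 2248, 2515 and 4409 normalized counts in libraries 1, 3 and 6, a mean of 3057 ± 1178. Here libraries 1 and 3 lay close together and library 6 was the high one, 1.96-fold over library 1 (1.87 to 2.06). The 2 genes did not share a low library, but their high library was the same, library 6, under total-count or upper-quartile scaling. RefSeq also gives hif1al as a synonym of hif1al2, so this row may stand for either of them.

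The epas1 genes encode HIF-2 alpha, the subunit that in mammals is prominent in vessels and in erythropoietin control. Normalized counts of epas1a were 231, 24.2 and 214 in libraries 1, 3 and 6, with a mean of 156 ± 115. Libraries 1 and 6 were alike and library 3 stood far below both. It rested on 22 counts in library 3 (exact 95% Poisson interval 13.8 to 33.3) against 239 in library 1, a difference of 9.52-fold (6.14 to 15.5), which exceeds counting error. The second copy, epas1b, had 13, 0 and 20 counts in libraries 1, 3 and 6, or 12.5, 0 and 18.9 after normalization. It was again library 3 that lacked reads. The value of library 6 was 5.73 times the limit of 3 counts there, without the counting error of its own 20 counts.

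Most blood markers were lowest in library 3, as the epas1 genes were, and so were most muscle, epidermis and perichondrium and bone markers. The collagen I markers were also lowest in library 3, but they were low in library 6 as well. The globin gene hbaa1 had 32434, 3837 and 28124 normalized counts in libraries 1, 3 and 6. Of the 8 blood markers with a mean of at least 10, 6 were lowest in library 3, against 32.8% of all such genes. These 6 were the measured globin, haem synthesis and red cell genes. For gata1a this was by only 5 counts against 6 in library 1. The split of the list into red and white cell genes was not planned, so only the whole list is set beside that share. The 3 white cell genes were not lowest in library 3, with lyz at 0, 279 and 158, lcp1 at 27.0, 185 and 149.6 and ptprc at 1.93, 3.30 and 20.8 normalized counts. Of the 8 muscle markers, which summed to 9101, 3639 and 14282, 6 were lowest in library 3, against the same 32.8% of all such genes. Of the 10 perichondrium and bone markers 7 were lowest in library 3, and of the 6 epidermis markers 4, against that same 32.8%. For col1a1a library 3 had 3876 against 56621 in library 1 and 5989 in library 6. What part these tissues have in the epas1a and epas1b counts was not tested.

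The oxygen sensor gene egln3 had the smallest SD on the log2 scale of the 9 over all 3 libraries, though in each pair of libraries another of the 9 differed less. It encodes a prolyl hydroxylase that is itself a HIF target in mammals. Its normalized count was 96.5, 67.2 and 82.4 in libraries 1, 3 and 6, with a mean of 82.0 ± 14.7. The highest library exceeded the lowest 1.44-fold (95% counting interval 1.03 to 2.01). This interval comes close to equal levels and, with the libraries picked as highest and lowest, does not show a difference. The gene vhl had 265, 119 and 107 normalized counts, a mean of 164 ± 88.2. Library 1 was the high one, 2.48-fold over library 6 (1.99 to 3.12), and libraries 3 and 6 had 108 and 113 counts, with Poisson intervals that overlap.

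The ligand genes vegfaa and vegfab are duplicates of Vegfa, and their high libraries differed. For vegfaa the normalized counts in libraries 1, 3 and 6 were 49.2, 20.9 and 2.84, with a mean of 24.3 ± 23.4. Only 3 counts stood behind the value of library 6 (exact 95% Poisson interval 0.619 to 8.77) against 51 in library 1, a ratio of 17.3 (5.61 to 86.8). For vegfab the values were 77.2, 224 and 44.5 normalized counts in libraries 1, 3 and 6, with a mean of 115 ± 95.4. Library 3 was the high one for vegfab, 5.02-fold over library 6 (3.64 to 7.06). Without library 1 the mean of vegfaa fell to 11.7, and without library 3 that of vegfab fell to 63.7, so each mean rested largely on 1 library. Library 1 was the highest for 5 of the 9 genes under TMM, namely hif1ab, epas1a, egln3, vhl and vegfaa. The share of all genes highest in library 1 is not given here. Library 1 also had the highest sums of perichondrium and bone markers and of epidermis markers. What part these tissues have in the counts of the 5 genes was not tested.

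The receptor gene kdrl is a standard marker of zebrafish endothelium, the cells on which Vegfa acts. Its counts in libraries 1, 3 and 6 were 23, 3 and 63, or 22.2, 3.30 and 59.7 normalized counts, with a mean of 28.4 ± 28.7. The ratio of library 6 to library 3 was 18.1 (5.90 to 89.9), and the mean was 12.4 without library 6 and 42.8 without library 3. Of 21 other endothelial genes listed, 15 had a row, and 3 were above the minimum, against 67.8% of all genes. Without library 1 or library 3 these were 6 (75.5% and 74.6% of all genes), without library 6 they were 5 (71.4%), and 13 had a mean of at least 10 (91.3%). Those 3 were fli1a with 304 ± 62.7, stab2 with 235 ± 250 and dll4 with 221 ± 165, of which fli1a is also active in cranial neural crest. The 15 genes summed to 1374, 688 and 1188 normalized counts in libraries 1, 3 and 6, most of it from those 3 genes. Gene by gene, 5 of the 13 with a mean of at least 10 were lowest in library 3, as kdrl was, against 32.8% of all such genes. Library 6 was the highest for 7 of the 13, as for kdrl, but the share of all genes highest there is not given here. Defining endothelial genes were at or near 0 in single libraries, such as tek with 0 counts in library 1, egfl7 with 0 in library 3 and clec14a with 0 in both. None of the 15 was at 0 in all 3, but the same held for every list used here. A listed gene without a row may have had no reads or another name, which was not tested. The part of vessel cells in the kdrl counts was not tested.

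**Figure D1:**
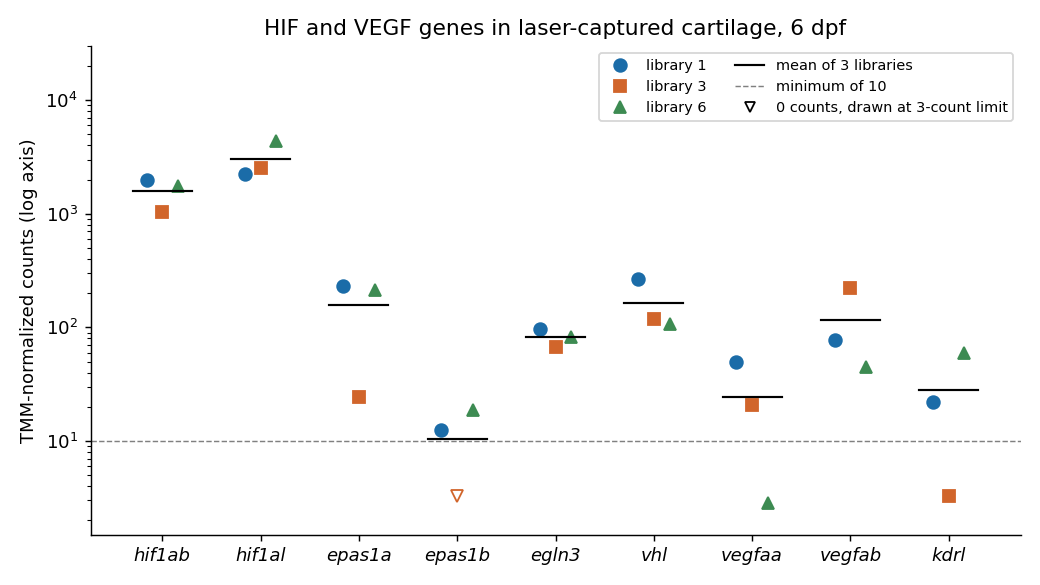
TMM-normalized counts (log axis) of the 9 HIF and VEGF genes in libraries 1, 3 and 6, with black bars for the mean, a dashed line at 10 and an open triangle for 0 counts drawn at the limit of 3 counts. The values of egln3 lie together between 67.2 and 96.5, whereas library 3 falls away for epas1a (24.2) and kdrl (3.30) and library 6 for vegfaa (2.84).

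In all, 6 of the 9 genes were above the minimum, as were 67.8% of all genes, so the share was near the background. They were hif1ab, hif1al, epas1a, egln3, vhl and vegfab. The other 3, epas1b, vegfaa and kdrl, each fell below 10 in a single library, which was library 3 for epas1b and kdrl and library 6 for vegfaa. All 9 had a mean of at least 10. Leaving out library 3 raised the number above 10 from 6 to 8, against 74.6% of all genes, with vegfaa then the only one below.

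Library 3 was the lowest library for 5 of the 9 genes (hif1ab, epas1a, epas1b, egln3 and kdrl), against 32.8% of all genes with a mean of at least 10. Library 6 was the lowest for 3 (vhl, vegfaa and vegfab), against 28.6% of those genes, and library 1 for hif1al alone, against 37.6%. With total counts in place of TMM, vhl was lowest in library 3 as well, which made 6. That scaling moved the median log2 ratio of library 3 to library 6 by -0.38 over all genes with such a mean. The share of all genes lowest in library 3 under total counts is not given here, so the 6 has no background beside it. The genes did not share 1 order of libraries, with vegfab at its highest in library 3 and epas1a at its lowest there. The 9 genes were read in the same 3 libraries and are not replicates, so these counts describe the libraries.

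The highest library was over 4 times the lowest for 5 of the 9 genes, against 44.2% of all genes with a mean of at least 10. These were epas1a, epas1b, vegfaa, vegfab and kdrl. Leaving out library 3 left 1 such gene, vegfaa, against 27.9% of all genes, and leaving out library 6 left 2 of 8 genes, against 30.4%. Without library 1 it was 4 of 8 genes, against 21.3%. The median SD of log2(normalized count + 1) over the 9 genes was 1.17, against 0.91 over all genes with such a mean. This order turned with 1 library. Without library 3 the median was 0.55 over the 9 genes and 0.75 over all genes, each SD then being of 2 libraries. Without library 1 the medians were 1.101, over the 8 genes that kept such a mean, and 0.62 over all genes. The single values ran from 0.26 for egln3, 0.50 for hif1ab, 0.52 for hif1al and 0.71 for vhl to 1.17 for vegfab, 1.82 for epas1a, 1.89 for vegfaa, 1.93 for kdrl and 2.35 for epas1b.

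**Figure D2:**
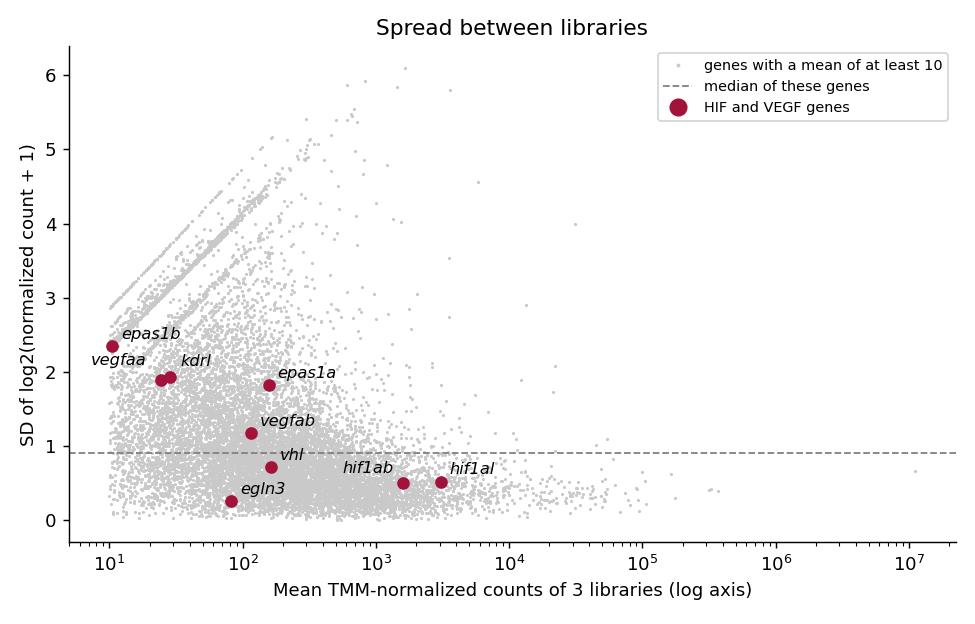
SD of log2(normalized count + 1) between the 3 libraries against the mean normalized count (log axis) of each gene with a mean of at least 10 (grey), with the 9 HIF and VEGF genes in red and the median of the grey genes, 0.91, as a dashed line. The genes egln3, vhl, hif1ab and hif1al lie below the line and the other 5 above it, among them 3 with a mean under 30.

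Several of these genes have a close relative in the table, and the share of each pair's counts that went to 1 gene does not depend on how the libraries are scaled. Gene length cancels only when the same share is compared between libraries, and counting could have split reads between duplicates. The pairs were chosen after the values were seen. Of the counts of vegfab and vegfaa together, vegfab held 61.1% of 131 in library 1 (95% Wilson interval 52.5 to 69.0%), 91.4% of 222 in library 3 (87.0 to 94.5%) and 94.0% of 50 in library 6 (83.8 to 97.9%). Libraries 3 and 6 overlapped, and library 1 lay below both beyond counting error.

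The share of kdrl in the counts of kdrl and kdr, the second zebrafish Vegfr2 gene, was 100% of 23 in library 1 (85.7 to 100%), 11.5% of 26 in library 3 (4.0 to 29.0%) and 90.0% of 70 in library 6 (80.8 to 95.1%). The summed counts of the pair were thus close in libraries 1 and 3, but they came from kdrl in the one and mostly from kdr in the other. In normalized counts kdr had 0, 25.3 and 6.63 in libraries 1, 3 and 6, so that library 3 was its highest. That value was 8.75 times the limit of 3 counts in library 1, without the counting error of library 3 itself.

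The counts of vhl and its relative vhll split in a similar way. The share of vhl was 98.2% of 280 in library 1 (95.9 to 99.2%), 42.0% of 257 in library 3 (36.1 to 48.1%) and 86.9% of 130 in library 6 (80.1 to 91.7%), with no overlap between any of the 3 intervals. The counts of vhll were 5, 149 and 17 in libraries 1, 3 and 6, a ratio of 34.0 between library 3 and library 1 after normalization (14.3 to 106).

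Among the HIF alpha genes nearly all counts fell on 1 copy in each library. The share of epas1a in the epas1a and epas1b counts was 94.8%, 100% and 91.9% in libraries 1, 3 and 6, with overlapping intervals, since the 22 counts of library 3 allow a share down to 85.1%. The share of hif1ab in the hif1ab and hif1aa counts was 99.4% (99.0 to 99.7%), 100% (99.6 to 100%) and 98.9% (98.4 to 99.3%), so libraries 3 and 6 did not overlap. The gene hif1aa had 12, 0 and 20 counts, close to the 13, 0 and 20 of epas1b. For the hydroxylases, egln3 held 100 of the 200 counts of egln3 and egln1 in library 1 (43.1 to 56.9%), 25.2% of 242 in library 3 (20.2 to 31.0%) and 34.4% of 253 in library 6 (28.8 to 40.4%). RefSeq gives the row egln1 as a synonym of egln1b, and it had 96.5, 199 and 157 normalized counts. Library 3 was thus its highest, where egln3 was at its lowest.

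**Figure D3:**
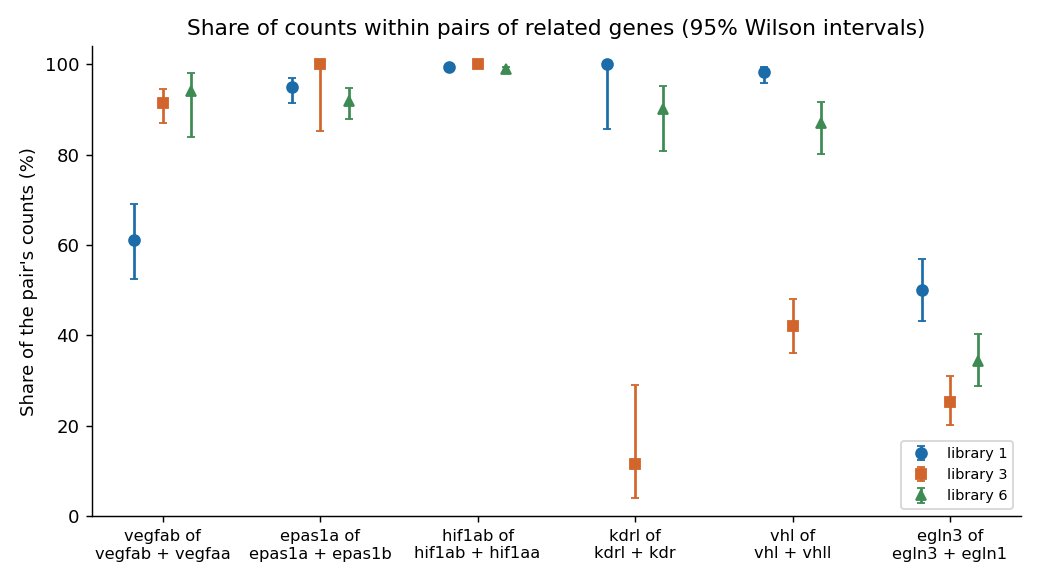
Share (%) of the summed counts of 6 pairs of related genes that fell on the first gene, in libraries 1, 3 and 6, with 95% Wilson intervals. Library 3 stands low for kdrl (11.5%) and vhl (42.0%), library 1 stands low for vegfab (61.1%), and the shares of epas1a and hif1ab stay above 90% in each library.

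The rest of the pathway was read from lists of 80 further genes, of which 54 had a row and 36 were above the minimum. That is again close to the 67.8% of all genes. Of the 12 measured partners in oxygen sensing, 8 were above the minimum. The 4 with the most counts, picked by number and not by level, were tceb2, the elongin B of the Vhl complex, with 1557 ± 643 normalized counts, arnt2, a partner of HIF alpha subunits, with 637 ± 295, rbx1, the RING subunit of the same ligase, with 392 ± 234, and siah1, a ubiquitin ligase that in mammals acts on Egln proteins, with 236 ± 117. The gene hif1an, named after its values were seen, encodes the asparagine hydroxylase that blocks HIF activity. It had 441, 35.2 and 227 normalized counts in libraries 1, 3 and 6, with library 3 the low one as for epas1a. The list as a whole did not share this. Of the 12 partners, 4 were lowest in library 3, against 32.8% of all genes with a mean of at least 10. Library 1 was the lowest for 5, against 37.6%, and library 6 for 3, against 28.6%.

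Of 25 measured HIF target genes, 15 were above the minimum, against 67.8% of all genes. The 4 with the most counts were hig1, a mitochondrial protein gene, with 2254 ± 731 normalized counts, the glycolytic gene pgk1 with 995 ± 377, the collagen cross-linking gene loxl2b with 950 ± 185 and mxi1, a Myc antagonist, with 943 ± 230. In the targets the low library varied. It was library 3 for pgk1, with 561 against 1179 in library 1 and 1245 in library 6, but library 1 for hig1, with 1413 against 2731 and 2619 in libraries 3 and 6. Of the 23 targets with a mean of at least 10, 12 were lowest in library 1, compared with 37.6% of all such genes. Library 3 was the lowest for 5, compared with 32.8%, and library 6 for 6, compared with 28.6%.

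Of 6 other VEGF ligands listed, vegfc and figf, the Vegfd gene, had a row, and neither was above the minimum, against 67.8% of all genes. For vegfc the values were 3.86, 29.7 and 24.6 normalized counts in libraries 1, 3 and 6, and for figf 17.4, 31.9 and 2.84. The value of figf in library 6 rested on 3 counts, the same number as for vegfaa.

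Among the other VEGF receptors, the neuropilin genes were counted in every library. Neuropilins are co-receptors that bind both VEGF and semaphorins, and they serve axons as well as vessels. In libraries 1, 3 and 6, nrp1a had 1139.9, 1714 and 855 normalized counts and nrp1b 609, 1000.2 and 277. Both were highest in library 3, as vegfab was and kdrl was not. For nrp2a the values were 36.7, 188 and 15.1, and for nrp2b 251, 229 and 84.3. All 4 neuropilin genes were lowest in library 6, against 28.6% of all genes with a mean of at least 10. The 8 nerve markers with a row summed to 5349, 9984 and 9498 normalized counts in libraries 1, 3 and 6, with the most counts on sncb. None of these 8 was lowest in library 6. Library 1 was the lowest for 6 of them, against 37.6%, and library 3 for 2, against 32.8%. The part of nerve tissue in the neuropilin counts was not tested.

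Of 14 listed genes of proteins that hold back vessels, 10 had a row and 9 were above the minimum, against 67.8% of all genes. The chondromodulin gene lect1, known as an inhibitor of vessel growth in mammalian cartilage, had 19064, 20469 and 27908 normalized counts in libraries 1, 3 and 6, a mean of 22481 ± 4753. The thrombospondin gene thbs1b had 14591, 15789 and 31182, a mean of 20521 ± 9252. Libraries 1 and 3 were close for both and library 6 was the high one, as for hif1al. Library 6 was also the highest for 8 of the 12 chondrocyte markers, though libraries 1 and 3 were not close for each of these. The share of all genes highest in library 6 is not given here. The protease inhibitor genes timp2a and timp2b had 1367 ± 350 and 1044 ± 82.3. The 1 gene below the minimum, named after its values were seen, was col18a1, the source of endostatin, with 1113 in library 1, 2.20 in library 3 and 25.6 in library 6.

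**Figure D4:**
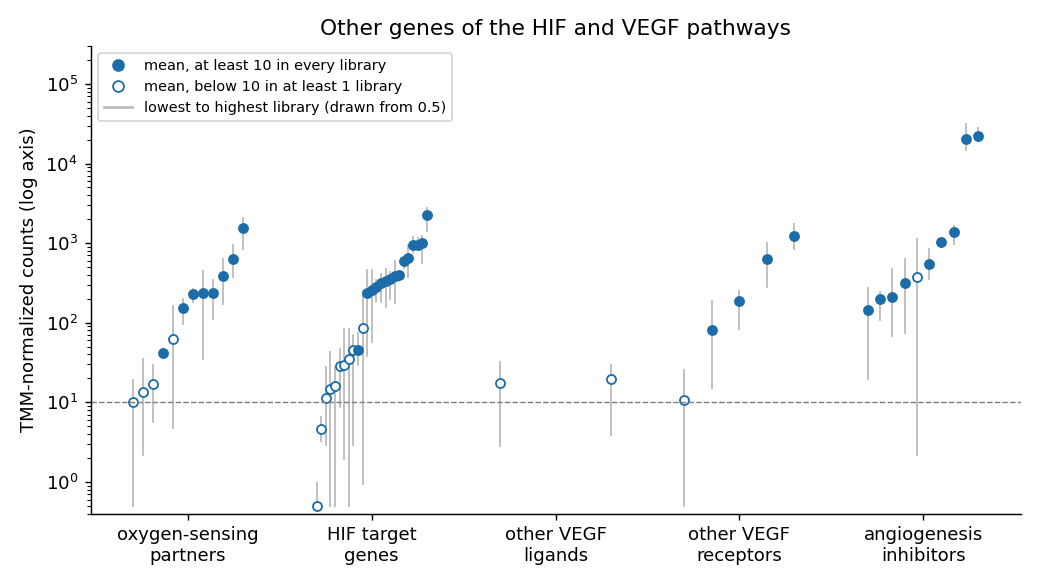
Mean TMM-normalized counts (log axis) of 54 other genes of the HIF and VEGF pathways by list, with grey lines from the lowest to the highest library, filled circles for genes above the minimum and open circles for the rest; values under 0.5 are drawn at 0.5. Both VEGF ligands are open, and thbs1b (20521) and lect1 (22481) stand at the top right.

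**Figure D5:**
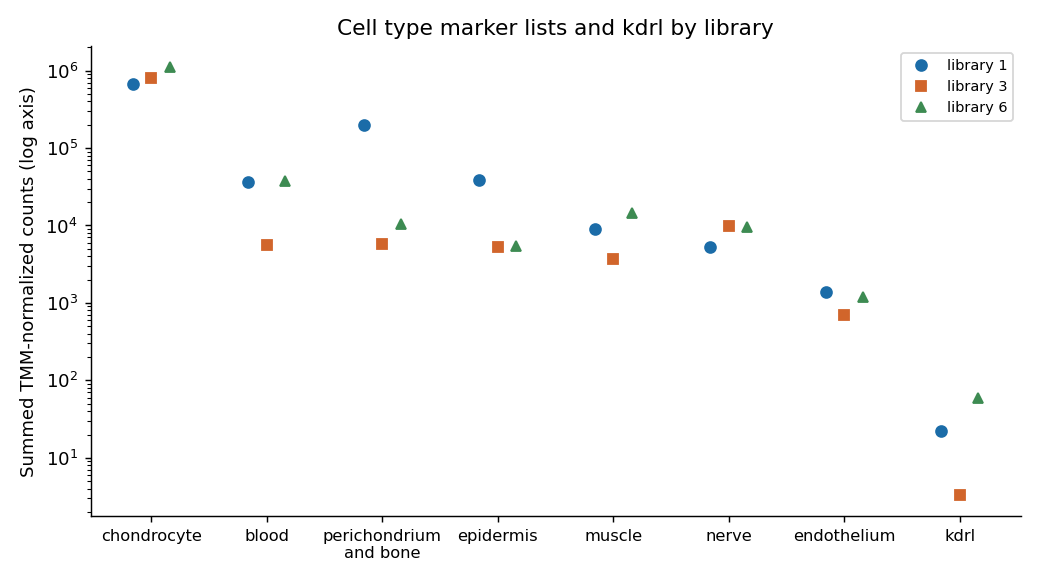
Summed TMM-normalized counts (log axis) of 7 lists of cell type markers in libraries 1, 3 and 6, with kdrl at the right. Library 3 lies lowest for the sums of blood, perichondrium and bone, muscle and endothelium (the last mostly 3 genes), libraries 3 and 6 nearly coincide for epidermis (5348 and 5376), and chondrocyte markers are lowest in library 1.

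The patterns over 3 libraries were too short to single out partners of a gene. For hif1al, the genes nearest in centred log2(normalized count + 1) were SNAP91 (1 of 2), fgf12a and pdxdc1, which differed by at most 0.015 in any library, but 386 of 9783 genes with a mean of at least 50 lay within 0.25 of it in all 3. For hif1ab the nearest were CR352290.2, gps2 and ppm1da, within 0.018, and 424 genes lay within 0.25.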

How the data were processed

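The labels list Trimmomatic 0.36, edgeR and the genome build Zv9 in the submitters' processing notes. The aligner, counting tool and annotation are not given in the sources used here. The authors deposited whole-number counts of reads per gene symbol for 3 libraries without normalization, and these counts were used as deposited. Because RefSeq names came from another assembly, GRCz12tu, no coordinates are given, and 13 listed genes were matched through RefSeq synonyms.

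For normalized counts, each count was divided by the library's total and TMM factor (0.883, 0.930 and 1.22 for libraries 1, 3 and 6; edgeR 4.0.16, R 4.3.3, all genes), and multiplied by the mean of those effective sizes. With 1 group no differential expression test was made. Depth runs from 18920027 to 25604897 counts. Poisson, binomial and Wilson intervals at 95% came from scipy 1.17.1, Python 3.11.15. The procedure was tested on simulated data.

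The members and lists were chosen with earlier results of these data known. Named were the 9 genes, the 4 highest of each pathway list, VEGF ligands and receptors with a row, the 2 highest of each marker list (mylpfa and pvalb2 for muscle, mbpa second for nerve, zgc:92533 and krt5 for epidermis, ba1 second for blood) and the 3 genes nearest to each of the 2 most counted members. Genes named after their values were seen were egln1, vhll, hif1aa, hif1an, col18a1, dll4, tek, clec14a, egfl7, gata1a, lyz, lcp1, ptprc, sp7 and dlx5a. Alternatives were DESeq2 1.42.0 size factors, total counts, upper quartile, other minimums and pseudocounts, and leaving out each library. Planned log2 ratios between genes per coding length were not made, because coding lengths were not used here.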

Additional observations from a re-analysis of the deposited data

How the results depend on the processing

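No paired analysis was possible because all samples are of 1 group. The number of HIF and VEGF genes above the minimum was 6 under each scaling and with a minimum of 5, 4 with a minimum of 50, 9 with a minimum of 10 in the mean, and between 6 and 8 when a library was left out. Of all genes, from 67.8% to 68.0% were above it under each scaling, 74.5% with a minimum of 5 and 46.4% with 50. With a minimum of 10 in the mean it was 91.3%, and with a library left out from 71.4% to 75.5%. Other pathway genes numbered 36 under each scaling and between 38 and 42 when a library was left out. Endothelial marker genes, 3 of 15, were 4 under total counts, 6 with a minimum of 5, 13 with a minimum of 10 in the mean and from 5 to 6 with 1 library left out, the last settings asking less of the lowest library. The median SD of the 9 genes was from 1.03 to 1.18 under other scalings and pseudocounts. With 1 library left out this median was from 0.55 (without library 3) to 1.101 (without library 1). Without library 1 or library 6 it was taken over 8 genes, since the mean of epas1b was then below 10. Total-count scaling moved the median log2 ratio of library 3 to library 6 by -0.38 and that of library 1 to library 6 by -0.46, and upper-quartile scaling moved library 1 to library 6 by -0.18. Under both, hif1ab and epas1a were highest in library 6 and not in library 1, and under total counts also egln3, while vegfab was then at 3.84 times from lowest to highest. None of 27 means under other scalings moved by an SD between libraries. That says little, since each scaling was brought to its mean effective size. The SD was also near the mean itself for epas1b, vegfaa and kdrl. With 1 library left out, 4 of the 9 means moved by over 1.5 times, for epas1b to 16.5 without library 3 and 6.10 without library 6. Few counts limit the values of epas1b, vegfaa and kdrl, which had 3 or fewer counts in 1 library each.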
